A study of Homo sapiens with 48 samples.

Results

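Transcription factors of B-cell and plasma-cell identity were followed in RNA-sequencing counts of AMO1, an established cell line of human multiple myeloma that was grown from a plasmacytoma. The members were PRDM1, POU2AF1, POU2F2, IKZF1, IKZF3, BCL6, BACH2, PAX5, SPIB and ZBTB20, 10 of the 58302 genes in the count table, picked by symbol alone. All cells carried short hairpin RNAs (shRNAs) under a promoter that doxycycline (Dox, 0.2 µg/ml) switches on. The shIRE1 clones held 3 shRNAs against ERN1, the gene of the endoplasmic reticulum stress sensor IRE1, and the shXBP1 clones held 3 against XBP1, whose mRNA IRE1 splices. Each of the 4 lines, shIRE1 clones 1 and 3 and shXBP1 clones 1 and 18, is 1 single-cell clone of a stably transfected culture. Cells were taken at 0, 24, 48 and 72 h of Dox, with 3 replicates at each time, so that the 48 libraries fall into 16 groups. Each clone was compared with itself at 0 h, cells with a control shRNA were not analysed here, and any effect of Dox alone is therefore part of each change.

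A B cell and a plasma cell are held apart by sets of transcription factors that repress each other. PAX5, BCL6, BACH2 and SPIB keep the B-cell or germinal-centre programme, whereas PRDM1, which encodes BLIMP1, represses it, and acts with IRF4 and XBP1 to set up the antibody-secreting state. POU2F2 (OCT2) binds the octamer of immunoglobulin promoters, and POU2AF1 (OCA-B) is its coactivator. IKZF1 (Ikaros) and IKZF3 (Aiolos) are zinc-finger proteins of the lymphoid lineage that myeloma cells also need, and ZBTB20 is a relative of BCL6 that is active in plasma cells.

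Total counts ran from 19177855 to 40767202 per library. Levels are given in CPM, counts per 1000000 of the TMM-scaled library total. ERN1 in the shIRE1 clones and XBP1 in the shXBP1 clones were lower in each library after Dox than in each 0 h library of the same clone. The log2 fold changes ran from -1.86 to -0.27 for ERN1 and from -2.32 to -1.44 for XBP1. The target of the other shRNAs moved as well. In shIRE1 clone 1 XBP1 changed by 0.10, -0.45 and -0.38 at 24, 48 and 72 h. In shIRE1 clone 3 it changed by -0.14, -0.95 and -0.86. ERN1 changed by 0.76, 0.62 and 0.72 in shXBP1 clone 1 and by -0.045, -0.29 and -0.29 in clone 18. Of these, XBP1 in shIRE1 clone 3 and ERN1 in shXBP1 clone 18 did not pass the edgeR test at 24 h. Of 8 plasma-cell markers, among them XBP1 and IRF4, 8 were above 1 CPM in every library. Of 7 markers of mature B cells, 2 (CD79B and CR2) were above 1 CPM in every library, whereas CD79A and CD22 were below it in every library. The 4 myeloid markers were below 1 CPM throughout, and so were 2 of 3 fibroblast markers and 3 of 5 T and NK markers, the remaining 2 of which were CD3E and CD8A. A pair of libraries lay nearer to another clone than to their own group. The one labelled shXBP1 clone 18, 72 h, replicate 3 had a mean correlation across genes of 0.978 with its group and 0.996 with shXBP1 clone 1 at 72 h, and it lay nearer to clone 1 at 13 of 13 genes that separate these clones. The one labelled shIRE1 clone 3, 24 h, replicate 1 had 0.993 with its group and 0.996 with shIRE1 clone 1. Changes of the members that compare these libraries with others are given with and without them, mainly where they were called. Changes at the other times of these clones come from fits that also hold them. The plots and the search for similar genes include them.

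PRDM1 and SPIB, the members that fell in both shIRE1 clones by the largest amounts at 72 h, are shown with the 250 bases before each of their annotated starts, from RefSeq on GRCh38.p14. They are given because of the size of these falls, and capitals mark the letters TATAAA where they occur. PRDM1 has 2 such starts in the table used, at chr6:106086086-106086335 and chr6:106098691-106098940, and SPIB has 1, at chr19:50418688-50418937, all on the plus strand.
PRDM1, first start: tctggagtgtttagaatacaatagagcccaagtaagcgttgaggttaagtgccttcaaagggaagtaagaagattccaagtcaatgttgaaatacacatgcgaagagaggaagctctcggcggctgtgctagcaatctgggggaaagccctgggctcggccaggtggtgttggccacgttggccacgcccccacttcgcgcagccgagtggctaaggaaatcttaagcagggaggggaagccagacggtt
PRDM1, second start: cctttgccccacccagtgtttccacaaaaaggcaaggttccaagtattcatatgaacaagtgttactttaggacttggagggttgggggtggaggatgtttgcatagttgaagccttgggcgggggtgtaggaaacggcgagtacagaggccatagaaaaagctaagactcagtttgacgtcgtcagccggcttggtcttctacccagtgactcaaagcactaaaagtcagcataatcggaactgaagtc
SPIB: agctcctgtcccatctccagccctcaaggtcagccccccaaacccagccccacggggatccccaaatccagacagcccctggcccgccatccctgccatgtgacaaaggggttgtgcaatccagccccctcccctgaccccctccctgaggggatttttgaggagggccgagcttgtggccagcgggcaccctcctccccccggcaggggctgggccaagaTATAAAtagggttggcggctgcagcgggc
Both strands were searched for 3 words, which do not overlap one another here. These were ATTTGCAT, the octamer that POU2F2 binds (1.63% of 35116 promoters of the same length hold it), TGACGTGG, a site of the unfolded protein response (0.612%), and TATAAA (10.7%). SPIB held TATAAA once, and the windows of PRDM1 held none of the words. Of the other members with an entry, IKZF1, PAX5 and ZBTB20 held TATAAA before at least 1 start. A match is a run of letters and was not tested as a site.

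The members spanned a wide range of levels before Dox. Per kilobase of the canonical GENCODE transcript, the mean over the 12 libraries at 0 h was 389 CPM for POU2AF1, 52.4 for PRDM1, 37.4 for IKZF3, 19.1 for IKZF1, 8.31 for SPIB, 7.07 for POU2F2 and 6.45 for BACH2. BCL6 stood at 0.171 and ZBTB20 at 0.0533 CPM per kilobase. POU2AF1 lay above all other members in every 0 h library, from 348 to 433 CPM per kilobase. The ranges of PRDM1 (45.7 to 57.7) and IKZF3 (29.7 to 48.9) overlapped. So did those of SPIB (4.52 to 13.0), POU2F2 (5.21 to 9.05) and BACH2 (4.63 to 10.4), so that no order among these 3 can be read. The transcript that the cells use was not measured, and a shorter or longer one would shift these values.

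PAX5 was too low to measure. Its counts were 0 in 43 of 48 libraries and 1 in the other 5, all of which were 48 or 72 h libraries, and no clone kept it for testing. A count of 0 allows up to 3 counts, which is at most 0.168 CPM (counting error only). ZBTB20 and BCL6 were kept in the tests but rested on few reads. ZBTB20 had 17 to 91 counts per library (median 47) and BCL6 had 8 to 41 (median 15). The other 7 members had at least 150 counts in each library. The lowest count among these was of SPIB, and POU2AF1 reached 71828. The plot of levels shows the 10 members against the value of 3 counts.

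**Figure D1:**
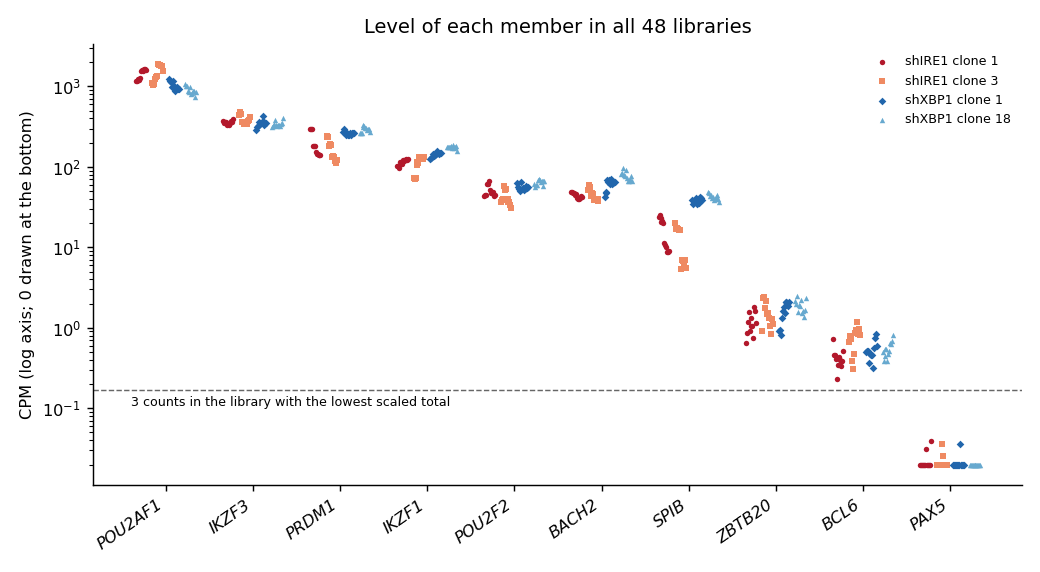
CPM (log axis, not divided by transcript length) of each member in all 48 libraries, one point per library and coloured by clone; values of 0 are drawn at the bottom. PAX5 lies below the dashed line, which marks 3 counts in the library with the lowest scaled total, while BCL6 lies between 0.231 and 1.18 CPM and POU2AF1 between 743 and 1900.3 CPM.

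The clones differed in these factors before Dox. In an edgeR fit of all 48 libraries, 8 of the 9 tested members differed between the shIRE1 clones at 0 h, where 40.6% of the 18445 genes tested did. Here and below, ± gives the SE for log2 values and the SD of 3 replicates for CPM. The difference, clone 3 minus clone 1 on the log2 scale, was -0.47 ± 0.046 (adjusted p = 5.77e-11) for IKZF1, -0.31 ± 0.039 (adjusted p = 2.48e-08) for PRDM1 and -0.41 ± 0.078 (adjusted p = 4.32e-05) for SPIB. IKZF3 was higher in clone 3, by 0.35 ± 0.064 (adjusted p = 2.24e-05). ZBTB20 was also higher in clone 3 (1.07, adjusted p = 0.00209), on few reads and with overlap. Its libraries held 0.903, 2.38 and 2.41 CPM in clone 3 and 0.650, 0.852 and 1.18 in clone 1. Between the shXBP1 clones 6 of 9 members differed at 0 h, against 51.3% of all genes. The largest difference of a well-measured member was that of BACH2, a repressor of PRDM1 in B cells, at 87.7 ± 7.53 CPM in clone 18 and 46.0 ± 2.94 in clone 1 (SD, n = 3), a log2 difference of 0.93 ± 0.063 (adjusted p = 2.80e-15). IKZF1 (0.46, adjusted p = 5.57e-11), SPIB (0.33, adjusted p = 2.64e-04) and ZBTB20 (1.28, adjusted p = 1.54e-04) were also higher in shXBP1 clone 18. PRDM1 differed there by -0.095 (adjusted p = 0.0394), a call that ended without the clone 1 replicate 2 library at 0 h (-0.095, adjusted p = 0.0679). In the shIRE1 pair, the calls of POU2AF1 (-0.15, adjusted p = 0.0491), POU2F2 (-0.21, adjusted p = 0.0279) and BACH2 (0.21, adjusted p = 0.00604) also rested on single libraries. That of POU2AF1 was lost in 14 of the 48 fits with 1 library left out, among them those without any of the 6 libraries compared, and that of POU2F2 without clone 1 replicate 2 or 3 or clone 3 replicate 1. Without the library that mattered most they stood at -0.12 (adjusted p = 0.194) for POU2AF1 (clone 1 replicate 3), -0.17 (adjusted p = 0.126) for POU2F2 (clone 3 replicate 1) and 0.17 (adjusted p = 0.0560) for BACH2 (clone 3 replicate 2), all at 0 h.

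After Dox, PRDM1 and SPIB fell and POU2AF1 and IKZF1 rose in both shIRE1 clones at 48 and 72 h, whereas in the shXBP1 clones POU2AF1 fell at these times and no change of SPIB was called. IKZF1 also rose in shXBP1 clone 1 at these times (0.20 and 0.18). PRDM1 was called at 48 h in both shXBP1 clones, lower in clone 1 (-0.16) and higher in clone 18 (0.19). In shIRE1 clone 1, 4 of 9 tested members changed at 24 h, 6 at 48 h and 6 at 72 h, where 61.4%, 65.4% and 63.6% of the 17154 genes tested changed. The corresponding numbers for shIRE1 clone 3 were 7, 6 and 8 of 9, against 46.2%, 63.2% and 60.2% of 17204 genes. In shXBP1 clone 1 they were 3, 6 and 4 of 9, against 26.7%, 32.0% and 33.6% of 16603 genes. In shXBP1 clone 18 the numbers were 1, 3 and 2 of 9, against 1.59%, 5.78% and 9.96% of 16860 genes. Without shXBP1 clone 1, 24 h, replicate 2 there were 5 calls at 24 h in that clone. In clone 18 no member was called at 24 or 48 h with any 1 of its 0 h libraries left out, at 24 h without 24 h replicate 2 or 3, at 48 h without 48 h replicate 1 or 2, or at 72 h without 0 h replicate 1 or 3. At 72 h 1 member was called without 0 h replicate 2 or 48 h replicate 2. The 3 times of a clone share their 0 h libraries, and so are not independent. The map of changes shows the 9 tested members in the 12 comparisons.

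**Figure D2:**
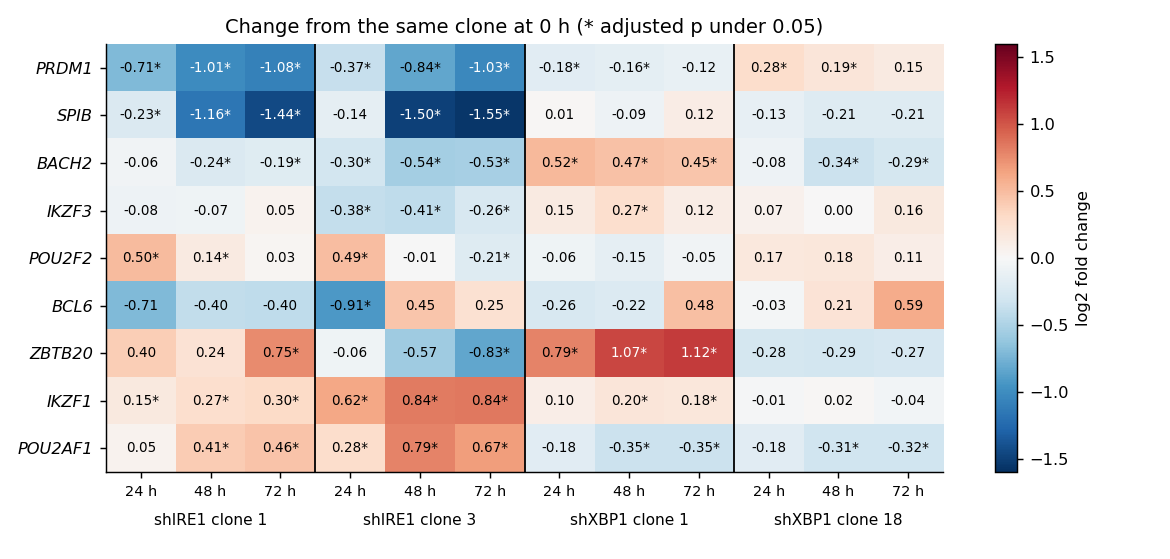
Log2 fold change of each tested member (rows) from the same clone at 0 h (columns, grouped by clone), from edgeR, with an asterisk for an adjusted p under 0.05. PRDM1 and SPIB are blue and IKZF1 and POU2AF1 are red across both shIRE1 clones at 48 and 72 h, and SPIB reaches -1.55 in shIRE1 clone 3 at 72 h.

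PRDM1, the gene of the repressor BLIMP1, was lower in both shIRE1 clones from 24 h onward. Its 3 libraries of shIRE1 clone 1 stood at 297, 293 and 297 CPM at 0 h, 181, 182 and 182 at 24 h, 152, 146 and 143 at 48 h and 139, 139 and 142 at 72 h. Those of shIRE1 clone 3 stood at 244, 238 and 235 CPM at 0 h, 180.2, 191 and 186 at 24 h, 132, 139 and 134 at 48 h and 119, 113 and 122 at 72 h. Every library after Dox lay below every 0 h library of its clone. The log2 fold change in clone 1 was -0.71 ± 0.036 (adjusted p = 5.03e-12) at 24 h, -1.01 ± 0.037 (adjusted p = 2.86e-14) at 48 h and -1.08 ± 0.037 (adjusted p = 1.27e-14) at 72 h. For clone 3 it was -0.37 ± 0.045 (adjusted p = 9.52e-06), -0.84 ± 0.046 (adjusted p = 4.99e-10) and -1.03 ± 0.046 (adjusted p = 5.52e-11), and at 24 h without replicate 1 it was -0.34 (adjusted p = 3.45e-05). Between 24 and 48 h PRDM1 fell further in both, with changes of -0.30 ± 0.037 (adjusted p = 4.88e-06) in clone 1 and -0.47 ± 0.046 (adjusted p = 1.34e-06) in clone 3, comparisons in which 30.3% and 34.6% of all genes changed. In bulk RNA, fewer cells with a transcript and less of it per cell cannot be told apart.

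The shXBP1 clones moved PRDM1 little and in opposite directions. Clone 1 had 271, 293 and 279.6 CPM at 0 h and 263, 264 and 262 at 72 h, with log2 fold changes of -0.18 ± 0.045 (adjusted p = 0.0117), -0.16 ± 0.045 (adjusted p = 0.0198) and -0.12 ± 0.045 (adjusted p = 0.0617) at 24, 48 and 72 h. Clone 18 had 262, 262 and 265 CPM at 0 h, 309, 329 and 319 at 24 h, 302, 308 and 291 at 48 h and 297, 298 and 275 at 72 h, so that all its Dox libraries lay above its 0 h libraries. Its log2 fold changes were 0.28 ± 0.051 (adjusted p = 0.0124), 0.19 ± 0.051 (adjusted p = 0.0432) and 0.15 ± 0.051 (adjusted p = 0.0827). The 24 h rise was no longer called without any of the 0 h libraries or without 24 h replicate 2 or 3 (between 0.25 and 0.31 over all fits with 1 library left out), and the 48 h rise without any of the 0 h libraries, 24 h replicates 2 or 3 or 48 h replicates 1 or 2 (0.17 to 0.22). Without the 72 h library that lay nearer to clone 1, the 72 h value was 0.18 (adjusted p = 0.0275). The 72 h rise was also called with DESeq2 (0.15, adjusted p = 0.0430) and with all 48 libraries in the edgeR fit (0.14, adjusted p = 0.00861). Without a filter on low counts, the falls in shXBP1 clone 1 were not called at 24 h (-0.17, adjusted p = 0.0661) or 48 h (-0.16, adjusted p = 0.0794).

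SPIB, an ETS factor of mature B cells that is low in plasma cells, had the largest fall of the members in the shIRE1 clones, most of it after 24 h. Its libraries of shIRE1 clone 1 held 23.6, 25.0 and 23.5 CPM at 0 h, 20.6, 21.1 and 20.0 at 24 h, 11.4, 10.6 and 10.1 at 48 h and 8.70, 8.86 and 9.01 at 72 h. In shIRE1 clone 3 they held 19.8, 17.1 and 17.3 at 0 h, 16.8, 16.2 and 16.4 at 24 h, 5.42, 6.95 and 6.85 at 48 h and 6.05, 7.01 and 5.57 at 72 h, in CPM. The 48 and 72 h libraries were far below the 0 h libraries in both clones, with no overlap. Log2 fold changes were -0.23 ± 0.063 (adjusted p = 0.00428), -1.16 ± 0.067 (adjusted p = 2.26e-11) and -1.44 ± 0.070 (adjusted p = 1.89e-12) in clone 1. Clone 3 gave -0.14 ± 0.10 (adjusted p = 0.267), -1.50 ± 0.11 (adjusted p = 1.28e-08) and -1.55 ± 0.11 (adjusted p = 1.03e-08). The step from 24 to 48 h was -0.93 ± 0.068 (adjusted p = 6.63e-09) in clone 1 and -1.36 ± 0.11 (adjusted p = 1.63e-07) in clone 3. In the shXBP1 clones SPIB ranged over higher levels, 37.1 ± 1.89 CPM in clone 1 and 46.7 ± 2.85 in clone 18 at 0 h (SD, n = 3), and none of its 6 changes passed the test, with values between -0.21 and 0.12. The clone 18 value at 72 h passed it without 72 h replicate 1 (-0.28, adjusted p = 0.0285) and with all 48 libraries in the fit (-0.215, adjusted p = 0.0378). It was -0.14 (adjusted p = 0.273) without the library that lay nearer to clone 1. The clone 18 value at 48 h passed the test with the 6 libraries compared alone (-0.21, adjusted p = 0.0292). Of the words searched before the starts printed above, TATAAA stood before SPIB and not before PRDM1.

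POU2AF1, the octamer coactivator and the most abundant member, rose in both shIRE1 clones and fell in both shXBP1 clones at 48 and 72 h. Clone 1 of shIRE1 held 1153, 1172 and 1246 CPM at 0 h, 1195, 1249 and 1262 at 24 h, 1572, 1600.5 and 1574 at 48 h and 1666, 1632 and 1615 at 72 h. Its clone 3 held 1108, 1040.3 and 1061 at 0 h, 1252, 1301 and 1366 at 24 h, 1900.3, 1842 and 1836 at 48 h and 1814, 1773 and 1572 at 72 h, in CPM. The libraries at 48 and 72 h lay above those at 0 h in both clones, while those at 24 h overlapped with 0 h in clone 1. Log2 fold changes were 0.051 ± 0.037 (adjusted p = 0.247), 0.41 ± 0.037 (adjusted p = 1.10e-08) and 0.46 ± 0.037 (adjusted p = 2.72e-09) in clone 1 and 0.28 ± 0.061 (adjusted p = 0.00163), 0.79 ± 0.062 (adjusted p = 2.93e-08) and 0.67 ± 0.062 (adjusted p = 1.85e-07) in clone 3. Levels in shXBP1 clone 1 went from 1241, 1169 and 1146 CPM at 0 h to 986, 923 and 923 at 72 h, and in clone 18 from 1087, 1001 and 1009 to 869, 743 and 853. The falls were -0.35 (adjusted p = 0.00551) at 48 h and -0.35 (adjusted p = 0.00491) at 72 h in clone 1, and -0.31 (adjusted p = 0.0252) and -0.32 (adjusted p = 0.0171) in clone 18. In clone 18 the 48 h call was lost without any of the 0 h libraries or without 48 h replicate 1 or 2 (-0.35 to -0.27) and the 72 h call without the 0 h replicate 1 (-0.28, adjusted p = 0.0810) or 3 (-0.33, adjusted p = 0.0521). It held, at -0.35 (adjusted p = 0.00998), without the 72 h library that lay nearer to clone 1.

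**Figure D3:**
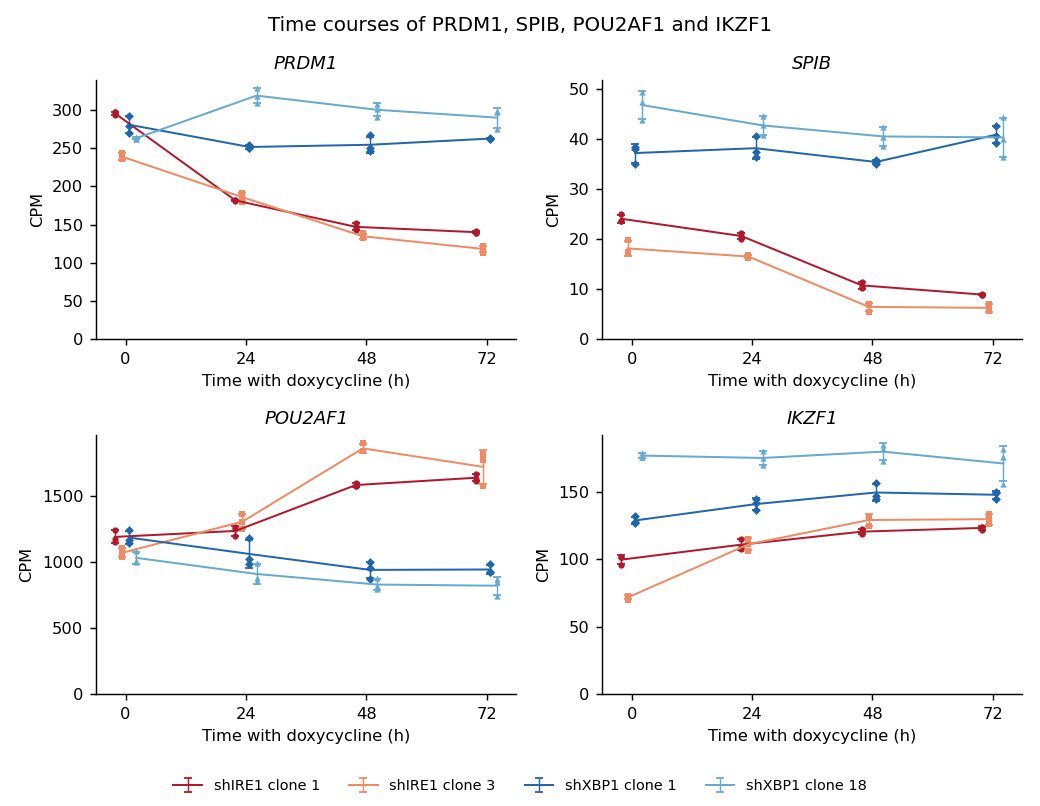
CPM of PRDM1, SPIB, POU2AF1 and IKZF1 against hours of doxycycline, with a point for each library and lines through the means of the 3 replicates (bars, SD), coloured by clone and shifted slightly sideways. In the shIRE1 clones at 72 h SPIB stands at 8.86 ± 0.155 and 6.21 ± 0.732 CPM, below the shXBP1 clones at 40.8 ± 1.70 and 40.3 ± 3.95, whereas POU2AF1 stands above them.

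POU2F2, which encodes the octamer-binding partner of POU2AF1, rose at 24 h in both shIRE1 clones and then fell. Its levels in shIRE1 clone 1 were 43.5, 44.7 and 45.4 CPM at 0 h and 61.4, 62.1 and 65.9 at 24 h, then 51.4, 47.4 and 48.0 at 48 h and 48.3, 43.4 and 44.6 at 72 h. Those in shIRE1 clone 3 were 36.7, 39.3 and 39.5 at 0 h, 58.4, 51.9 and 53.2 at 24 h, 39.1, 37.0 and 39.4 at 48 h and 36.2, 33.7 and 30.8 at 72 h, in CPM. At 24 h both clones lay above 0 h with no overlap, and the changes were 0.50 ± 0.055 (adjusted p = 2.53e-07) and 0.49 ± 0.074 (adjusted p = 6.52e-05) on the log2 scale (0.44, adjusted p = 2.57e-04 in clone 3 without replicate 1). From 24 to 48 h the change was -0.36 ± 0.055 (adjusted p = 5.00e-05) in clone 1 and -0.50 ± 0.073 (adjusted p = 7.52e-05) in clone 3. The later changes from 0 h were small. In clone 1 they were 0.14 (adjusted p = 0.0372) at 48 h and 0.026 (adjusted p = 0.707) at 72 h, and in clone 3 -0.010 (adjusted p = 0.911) and -0.21 (adjusted p = 0.0249). The 48 h call in clone 1 ended without 0 h replicate 1 (0.12, adjusted p = 0.105) or 2 (0.14, adjusted p = 0.0810) or 48 h replicate 1 (0.093, adjusted p = 0.189). The 72 h call in clone 3 ended without 0 h replicate 2 (-0.21, adjusted p = 0.0565) or 3 (-0.20, adjusted p = 0.0608) or 72 h replicate 3 (-0.15, adjusted p = 0.0793). None of its 6 changes in the shXBP1 clones passed the test, with values from -0.15 to 0.18. The clone 18 value at 48 h, where all libraries lay above those at 0 h, passed it with the 6 libraries compared alone (0.17, adjusted p = 0.0334).

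IKZF1 (Ikaros) rose in both shIRE1 clones, and more in the clone that began lower. Clone 1 went from 101, 102 and 96.0 CPM at 0 h to 115, 108 and 109 at 24 h, 120.3, 119 and 122 at 48 h and 124, 122 and 124 at 72 h. Clone 3 went from 72.6, 70.1 and 73.0 CPM at 0 h to 106, 115 and 111 at 24 h, 131, 132 and 124 at 48 h and 129, 126 and 134 at 72 h. Every Dox library lay above every 0 h library of its clone, and at 72 h the clones stood at 123 ± 1.45 and 129.7 ± 3.97 CPM (SD, n = 3). The log2 fold changes were 0.15 ± 0.040 (adjusted p = 0.00307), 0.27 ± 0.040 (adjusted p = 6.52e-06) and 0.30 ± 0.040 (adjusted p = 2.06e-06) in clone 1, and 0.62 ± 0.049 (adjusted p = 8.68e-08), 0.84 ± 0.049 (adjusted p = 1.24e-09) and 0.84 ± 0.049 (adjusted p = 1.22e-09) in clone 3. The step from 24 to 48 h was 0.21 (adjusted p = 0.00310) in clone 3 and 0.12 (adjusted p = 0.0224) in clone 1, where it was not called without 24 h replicate 2 (0.11, adjusted p = 0.0963) or 3 (0.12, adjusted p = 0.0622) or 48 h replicate 1 (0.12, adjusted p = 0.0720). In shXBP1 clone 1 it rose by 0.20 (adjusted p = 0.00574) at 48 h and 0.18 (adjusted p = 0.00949) at 72 h, the latter not called without a filter on low counts (0.18, adjusted p = 0.0572). In shXBP1 clone 18, where it was highest at 177 ± 1.81 CPM at 0 h, the changes ran from -0.043 to 0.024 and none passed the test.

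IKZF3 (Aiolos), the near relative of IKZF1, fell in shIRE1 clone 3, and none of its changes from 0 h was called in shIRE1 clone 1. It held 374, 353 and 357 CPM in shIRE1 clone 1 at 0 h and 371, 363 and 391 at 72 h, and its changes there were -0.076 (adjusted p = 0.103), -0.073 (adjusted p = 0.111) and 0.050 (adjusted p = 0.277). The first of these passed the test with the scaling of DESeq2 in place of TMM (-0.099, adjusted p = 0.0482) and without 24 h replicate 1 (-0.11, adjusted p = 0.0260). In shIRE1 clone 3 its libraries held 447, 478 and 459 CPM at 0 h, 362, 366 and 345 at 24 h, 359, 346 and 342 at 48 h and 368, 379.7 and 423 at 72 h, all Dox libraries below all 0 h libraries. The falls were -0.38 ± 0.053 (adjusted p = 3.44e-05), -0.41 ± 0.053 (adjusted p = 6.56e-06) and -0.26 ± 0.052 (adjusted p = 6.31e-04), and -0.38 (adjusted p = 9.14e-05) at 24 h without replicate 1. In the shXBP1 clones 1 of 6 changes was called, a rise of 0.27 (adjusted p = 0.00859) in clone 1 at 48 h.

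BACH2, a repressor of the plasma-cell programme, was lower at 48 and 72 h in both shIRE1 clones and in shXBP1 clone 18, and higher in shXBP1 clone 1. Its shIRE1 clone 1 libraries held 48.5, 49.1 and 46.7 CPM at 0 h, 41.4, 40.4 and 40.5 at 48 h and 40.8, 43.4 and 42.8 at 72 h, and those of clone 3 held 51.4, 59.2 and 56.8 CPM at 0 h, 38.7, 38.3 and 38.7 at 48 h and 39.3, 38.0 and 39.9 at 72 h. The changes were -0.24 (adjusted p = 2.32e-04) and -0.19 (adjusted p = 0.00205) in clone 1 and -0.54 (adjusted p = 2.02e-06) and -0.53 (adjusted p = 2.88e-06) in clone 3. At 24 h they were -0.062 (adjusted p = 0.260) in clone 1 and -0.30 (adjusted p = 0.00112) in clone 3 (-0.27, adjusted p = 0.00387 without replicate 1). In shXBP1 clone 1 the libraries held 42.7, 48.2 and 47.2 CPM at 0 h, 67.8, 65.7 and 68.5 at 24 h and 62.7, 64.2 and 64.2 at 72 h, and the rises were 0.52 ± 0.067 (adjusted p = 2.21e-04), 0.47 ± 0.067 (adjusted p = 4.09e-04) and 0.45 ± 0.067 (adjusted p = 4.85e-04) at the 3 times. All Dox libraries of this clone lay above its 0 h libraries. In shXBP1 clone 18 the level went from 82.0, 84.9 and 96.2 CPM at 0 h to 72.9, 67.3 and 67.4 at 48 h and 70.1, 77.2 and 67.5 at 72 h. These falls, -0.34 (adjusted p = 0.0242) and -0.29 (adjusted p = 0.0386), rested on single libraries. The 48 h call was lost without any of the 6 libraries compared, and the 72 h call without any of the 0 h libraries, 48 h replicate 2 or 72 h replicates 1 or 3. With 1 library left out the values ranged from -0.38 to -0.26 at 48 h and from -0.34 to -0.20 at 72 h, and the 72 h value was -0.25 (adjusted p = 0.0825) without the library that lay nearer to clone 1.

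ZBTB20 and BCL6, both BTB zinc-finger repressors, gave calls on few reads. ZBTB20 in shXBP1 clone 1 had 27, 33 and 22 counts at 0 h and 52, 53 and 67 at 72 h, or 0.904, 0.948 and 0.814 and 1.95, 1.85 and 2.11 CPM, without overlap. Its rises there were 0.79 ± 0.17 (adjusted p = 0.00627), 1.07 ± 0.18 (adjusted p = 9.28e-04) and 1.12 ± 0.17 (adjusted p = 5.91e-04). Between the shIRE1 clones it moved in opposite directions at 72 h, 0.75 (adjusted p = 0.0226) in clone 1 and -0.83 (adjusted p = 0.0331) in clone 3, and in both the 72 h libraries overlapped with those at 0 h. The clone 1 call was lost without any of 0 h replicates 1 (0.59, adjusted p = 0.0874) and 2 (0.71, adjusted p = 0.0687) and 72 h replicates 1 (0.61, adjusted p = 0.0997) and 2 (0.71, adjusted p = 0.0644). The clone 3 call was lost without 0 h replicate 2 (-0.66, adjusted p = 0.123) or 3 (-0.61, adjusted p = 0.156) or 72 h replicate 1 (-0.67, adjusted p = 0.119). BCL6 in shIRE1 clone 3 had 17, 18 and 20 counts at 0 h, 10, 13 and 16 at 24 h and 24, 37 and 41 at 48 h. Its change at 24 h was -0.91 ± 0.26 (adjusted p = 0.0104), a call lost without 24 h replicate 2 (-0.75, adjusted p = 0.0639), and rose from 24 to 48 h by 1.36 ± 0.24 (adjusted p = 3.80e-04). Its 48 h change from 0 h was 0.45 (adjusted p = 0.0912). No other change of BCL6 from 0 h passed the test in any clone, among them -0.71 (adjusted p = 0.0580) in shIRE1 clone 1 at 24 h, on 14, 8 and 11 counts.

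**Figure D4:**
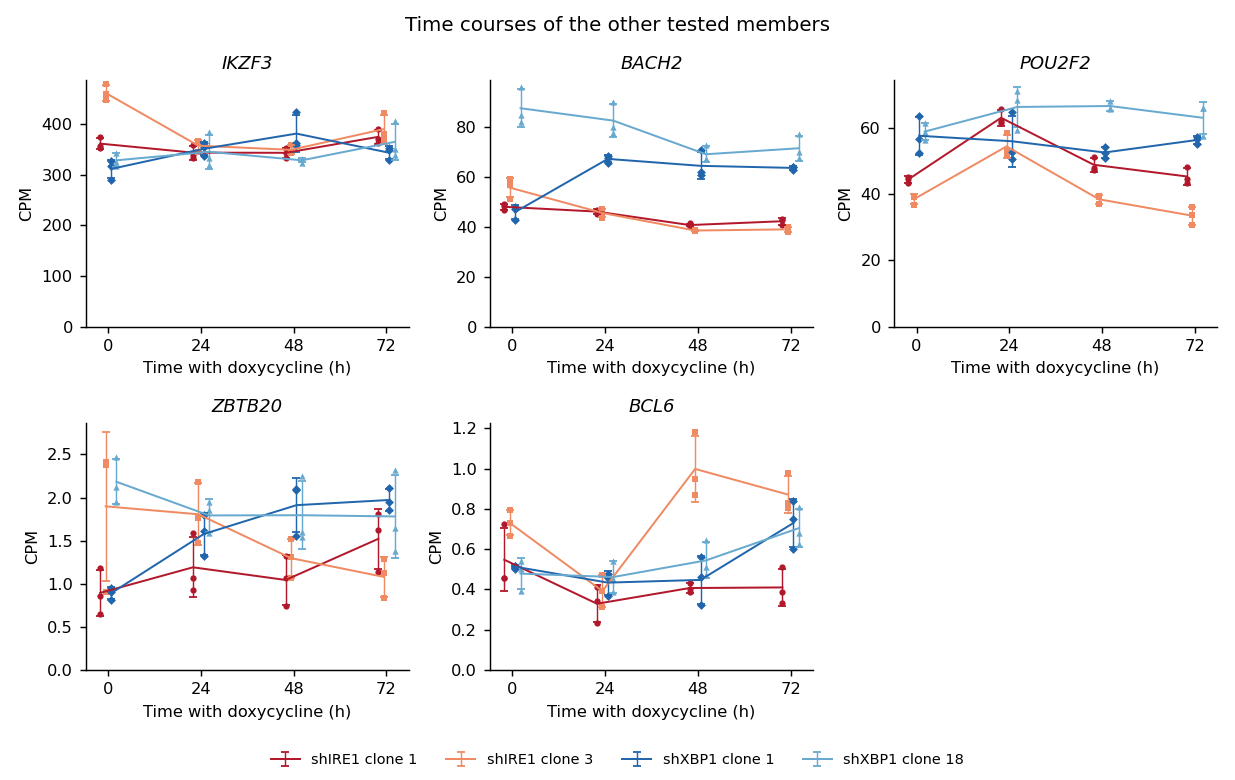
CPM of the other tested members against hours of doxycycline, drawn as for PRDM1 (points, libraries; lines and bars, mean and SD of 3 replicates), each panel with its own axis from 0. BACH2 of shXBP1 clone 1 rises from 46.0 ± 2.94 CPM at 0 h to 63.7 ± 0.842 at 72 h, POU2F2 of the shIRE1 clones peaks at 24 h, and ZBTB20 and BCL6 lie at or below 2.47 CPM with wide bars.

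Without shIRE1 clone 3, 24 h, replicate 1, which lay nearer to clone 1, no call of a member in that clone changed at 24 h or from 24 to 48 h. At 24 h POU2AF1 was at 0.31 (adjusted p = 0.00116), IKZF1 at 0.65 (adjusted p = 1.07e-07), SPIB at -0.15 (adjusted p = 0.282) and BCL6 at -0.92 (adjusted p = 0.0185). From 24 to 48 h the changes were -0.49 (adjusted p = 1.88e-06) for PRDM1, -1.34 (adjusted p = 9.05e-07) for SPIB, -0.45 (adjusted p = 3.42e-04) for POU2F2, 0.18 (adjusted p = 0.0114) for IKZF1 and 1.37 (adjusted p = 0.00126) for BCL6.

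Whether a member responded differently to the shRNAs was tested directly, as the mean response of the shIRE1 clones minus that of the shXBP1 clones. Each arm has 2 clones, and the SE and p come from the replicates within clones, not from the spread between clones. At each of 24, 48 and 72 h, 6 of 9 members differed, where 38.7%, 56.9% and 55.3% of the 18445 genes tested did. PRDM1, IKZF3 and BACH2 were lower and POU2AF1 and IKZF1 higher in response at all 3 times. SPIB was lower at 48 and 72 h, and POU2F2 was higher at 24 h. In each of these calls but those of BACH2, both shIRE1 clones lay on the same side of both shXBP1 clones, in part by small gaps. For IKZF3 at 72 h shIRE1 clone 1 stood at 0.050 ± 0.039 and shXBP1 clone 1 at 0.12 ± 0.066. For IKZF1 at 24 h these clones stood at 0.15 ± 0.040 and 0.10 ± 0.044. For PRDM1 the difference of log2 fold changes was -0.59 ± 0.039 (adjusted p = 4.54e-16), -0.94 ± 0.039 (adjusted p = 1.07e-22) and -1.07 ± 0.039 (adjusted p = 2.56e-24). SPIB differed by -0.13 ± 0.076 (adjusted p = 0.162), -1.19 ± 0.078 (adjusted p = 2.51e-16) and -1.45 ± 0.079 (adjusted p = 7.72e-19). POU2AF1 differed by 0.34 ± 0.063 (adjusted p = 3.31e-05), 0.93 ± 0.064 (adjusted p = 8.54e-16) and 0.90 ± 0.064 (adjusted p = 2.11e-15), and IKZF1 by 0.33 ± 0.045 (adjusted p = 1.11e-07), 0.44 ± 0.045 (adjusted p = 7.47e-11) and 0.50 ± 0.045 (adjusted p = 2.23e-12).

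The difference of IKZF3 was -0.34 (adjusted p = 3.77e-05), -0.38 (adjusted p = 2.82e-06) and -0.24 (adjusted p = 0.00161). That of BACH2 was -0.41 (adjusted p = 1.49e-06), -0.46 (adjusted p = 6.59e-08) and -0.44 (adjusted p = 1.83e-07). The BACH2 difference is one of means, since shXBP1 clone 18, at -0.084, -0.34 and -0.29, lay between shIRE1 clone 1, at -0.062, -0.24 and -0.19, and shIRE1 clone 3, and shXBP1 clone 1 alone rose. The difference of POU2F2 was 0.44 ± 0.076 (adjusted p = 1.21e-05) at 24 h and 0.044 ± 0.076 (adjusted p = 0.645) at 48 h. ZBTB20 (-0.46, adjusted p = 0.150) and BCL6 (-0.61, adjusted p = 0.0585) did not pass the test at 72 h. BCL6 passed it in 7 of 48 fits with 1 library left out (-0.69 to -0.50 over all 48), and ZBTB20 without shIRE1 clone 3, 0 h, replicate 1 (-0.64, adjusted p = 0.0238). Those of BCL6 were the fits without shIRE1 clone 1, 0 h, replicate 2 or 3 or 72 h, replicate 3, shIRE1 clone 3, 72 h, replicate 2, shXBP1 clone 1, 72 h, replicate 3, or shXBP1 clone 18, 0 h, replicate 3 or 72 h, replicate 1. Without the shXBP1 library that lay nearer to the other clone, 6 members differed at 72 h as before, PRDM1 by -1.10 (adjusted p = 2.10e-25), SPIB by -1.49 (adjusted p = 1.87e-19), POU2AF1 by 0.91 (adjusted p = 8.07e-15), IKZF1 by 0.46 (adjusted p = 8.80e-13), IKZF3 by -0.21 (adjusted p = 0.00289) and BACH2 by -0.47 (adjusted p = 4.17e-08). Without the shIRE1 library that lay nearer to the other clone, 6 differed at 24 h, PRDM1 by -0.58 (adjusted p = 4.75e-15), POU2AF1 by 0.36 (adjusted p = 3.60e-05), POU2F2 by 0.41 (adjusted p = 5.33e-05), IKZF1 by 0.35 (adjusted p = 5.49e-08), IKZF3 by -0.35 (adjusted p = 3.74e-05) and BACH2 by -0.39 (adjusted p = 4.83e-06).

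**Figure D5:**
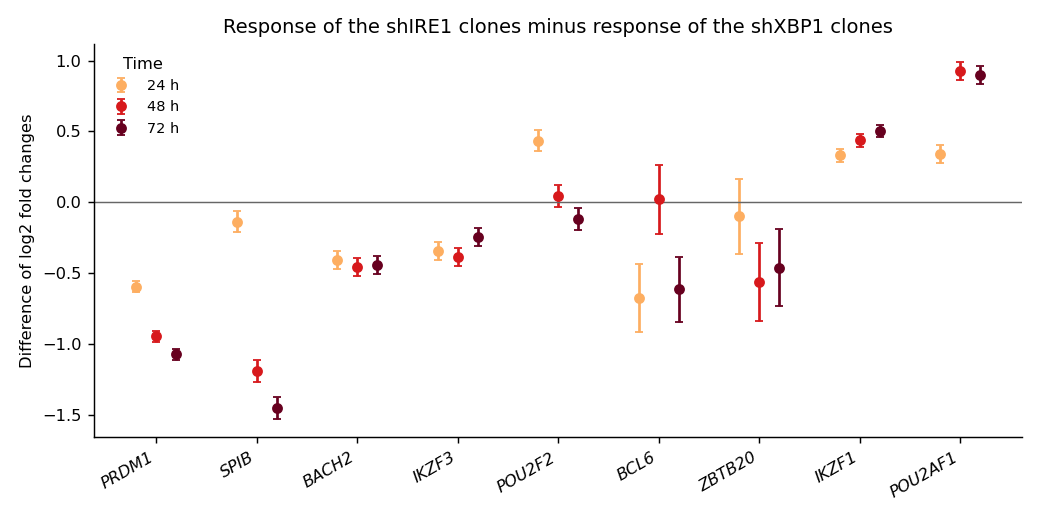
Difference of log2 fold changes, shIRE1 clones minus shXBP1 clones, for each tested member at 24, 48 and 72 h (points, estimate; bars, SE) from the fit of 48 libraries. At 72 h SPIB lies at -1.45 and PRDM1 at -1.07, POU2AF1 lies at 0.90 and IKZF1 at 0.50, and the bars of BCL6 and ZBTB20 are the widest.

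The clones of one shRNA were also set against each other at 72 h. Between the shIRE1 clones 4 of 9 members responded differently, against 27.5% of all genes. The response of IKZF1 was higher in clone 3 by 0.55 ± 0.064 (adjusted p = 1.39e-08), and those of IKZF3 (-0.30, adjusted p = 0.0127), BACH2 (-0.33, adjusted p = 0.00491) and ZBTB20 (-1.57, adjusted p = 0.00225) were lower. That of BACH2 was not called without a filter on low counts (-0.31, adjusted p = 0.0615). For PRDM1 the estimate was 0.061 ± 0.055 (adjusted p = 0.446) and for SPIB -0.10 ± 0.12 (adjusted p = 0.572), neither of which passed the test. The response of POU2AF1, 0.22 (adjusted p = 0.0574), passed it under RLE scaling (0.25, adjusted p = 0.0264), without a filter on low counts, with DESeq2 and in 21 of 48 fits with 1 library left out, at most 0.30 (adjusted p = 0.0138) without shIRE1 clone 3, 72 h, replicate 3. ERN1 itself changed by -0.58 in clone 1 and -1.82 in clone 3 at 72 h, from 152 ± 2.37 and 438 ± 15.4 CPM at 0 h, and the part of this in the difference between clones was not tested. Between the shXBP1 clones 5 of 9 members differed, against 24.6%. The difference, clone 18 minus clone 1, was -0.76 ± 0.089 (adjusted p = 2.53e-08) for BACH2, -1.42 ± 0.37 (adjusted p = 0.00408) for ZBTB20, 0.24 ± 0.055 (adjusted p = 0.00126) for PRDM1, -0.25 ± 0.064 (adjusted p = 0.00352) for IKZF1 and -0.35 ± 0.10 (adjusted p = 0.0115) for SPIB. Without the library labelled clone 18, 72 h, replicate 3, 3 members differed, and IKZF1 (-0.15, adjusted p = 0.0548) and SPIB (-0.25, adjusted p = 0.0853) did not. The call of SPIB also ended without clone 1, 0 h, replicate 2 (-0.28, adjusted p = 0.0612), clone 1, 72 h, replicate 1 (-0.29, adjusted p = 0.0595) or clone 18, 0 h, replicate 1 (-0.29, adjusted p = 0.0588). Without a filter on low counts, BACH2 and ZBTB20 alone were called.

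Genes of the plasma-cell programme were read next to the factors. Of 25 such genes, all tested in the shIRE1 clones, 4 rose and 19 fell in clone 1 at 72 h and 1 rose and 22 fell in clone 3, with median log2 fold changes of -0.58 and -1.08 against 0.018 and 0.015 over all genes tested, of which 63.6% and 60.2% were called. The 19 that fell in both included GPRC5D (-1.47 and -2.83 in clones 1 and 3), TNFRSF17, the receptor BCMA (-1.21 and -2.54), the ER protein HERPUD1 (-1.12 and -2.19) and TXNDC5, a protein disulphide isomerase (-1.03 and -3.05). The libraries of TXNDC5 in clone 3 were spread widely at 0 h, from 15.9 to 35.1 CPM, and held 1.79 to 3.40 at 72 h. FCRL5 was the 1 gene that rose in both (0.18 and 0.76). IRF4, which induces PRDM1 in plasma-cell differentiation, went from 1300.1 ± 53.3 to 603 ± 6.69 CPM in clone 1 and from 1422 ± 33.8 to 335 ± 21.0 in clone 3. In the shXBP1 clones its 72 h changes were 0.16 and 0.0089 (-0.018 in clone 18 without replicate 3). The part of IRF4 in the changes of PRDM1 was not tested. The list also holds XBP1, the target of the shRNAs in the shXBP1 clones, whose fall there was set by the design. At 72 h XBP1 changed by -2.32 in shXBP1 clone 1 and by -2.16 in clone 18. In shXBP1 clone 1, 5 rose and 9 fell of 25 tested genes (median -0.048), where 33.6% of all genes were called. In clone 18, 0 rose and 14 fell of 24 (median -0.50), where 9.96% of all genes were called. Without the clone 18 library that lay nearer to clone 1, 15 fell (median -0.34), against 7.57% of all genes.

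Of 30 genes of the B-cell programme, 22 were tested in each shIRE1 clone. At 72 h 13 rose and 2 fell in clone 1 (median 0.71) and 11 rose and 3 fell in clone 3 (median 0.23). Over all genes the medians were 0.018 and 0.015, and the shares called, 63.6% and 60.2%, were near those of the list. The 9 that rose in both included CIITA, the regulator of MHC class II genes that BLIMP1 represses in plasma cells, which went from 54.9 ± 3.29 to 181 ± 8.63 CPM in clone 1 and from 38.1 ± 2.71 to 197 ± 11.3 in clone 3. Its log2 fold changes were 1.72 and 2.36. IRF8, a B-cell factor, rose from 0.364 ± 0.0926 to 3.38 ± 0.0270 CPM in clone 1 and from 0.112 ± 0.0962 to 6.14 ± 0.446 in clone 3. The complement receptor CR2 rose by 1.59 and 2.40. MS4A1 (CD20) rose by 3.05 and 3.44, from 0.231 ± 0.134 and 0.131 ± 0.0521 CPM to 1.96 ± 0.281 and 1.49 ± 0.127. Its lowest 0 h libraries, at 0.0981 CPM in clone 1 and 0.0785 in clone 3, held no more than 3 counts. So did the lowest 0 h library of IRF8 in clone 3, at 0.0365 CPM. FOXO1 was the 1 gene that fell in both (-0.81 and -1.16). In shXBP1 clone 1, 6 rose and 2 fell of 21 tested genes at 72 h, and in clone 18 2 rose and 2 fell of 22, where 33.6% and 9.96% of all genes were called. Without the clone 18 library that lay nearer to clone 1, 2 rose and 2 fell, and the median was 0.085 in place of -0.024. The summed level of the 7 mature B-cell markers, most of it CD79B, was 63.6 to 67.7 CPM at 0 h and 96.0 to 102 at 72 h in shIRE1 clone 1, 73.6 to 84.0 and 91.5 to 107 in clone 3, 72.2 to 87.7 and 58.3 to 66.0 in shXBP1 clone 1 and 119.8 to 129 and 58.0 to 95.5 in clone 18. That of the 8 plasma-cell markers was 13936 to 15638 CPM at 0 h and 8956 to 9499.9 at 72 h in shIRE1 clone 1, 17100.3 to 18804 and 7369 to 9182 in clone 3, 17329.7 to 20688 and 12798 to 13836 in shXBP1 clone 1 and 18106 to 18461 and 12840.1 to 14998 in clone 18. The 5 T and NK markers, whose sum was mostly CD3E, summed to 7.59 to 8.95 CPM at 0 h and 17.2 to 20.1 at 72 h in shIRE1 clone 1, 10.2 to 10.8 and 17.8 to 18.8 in clone 3, 6.63 to 8.18 and 7.69 to 9.18 in shXBP1 clone 1 and 11.9 to 14.4 and 8.72 to 15.4 in clone 18, with CD3D at 0 counts in 42 and CD2 in 47 of 48 libraries. In clone 18 at 72 h the 2 libraries other than replicate 3 held 84.4 to 95.5 CPM of mature B-cell, 14147 to 14998 of plasma-cell and 14.9 to 15.4 of T and NK markers. The part of these markers in the changes of the factors was not tested.

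The genes most like 4 of the members were sought over the 12 changes from 0 h of a group's mean log2 CPM, among 11959 genes. By Pearson's r across these 12 changes, which share 0 h libraries within a clone, PRDM1 was most like OAZ1 (0.986), SURF4 (0.986) and ITPK1 (0.985). POU2AF1 was most like TPCN1 (0.993), GPR35 (0.993) and CHKB (0.992), IKZF1 like TMEM131 (0.982), MYCBP2 (0.980) and CIAPIN1P (0.977) and IKZF3 like RSBN1L (0.987), THAP9-AS1 (0.981) and GIN1 (0.973). CIAPIN1P is named as a pseudogene and THAP9-AS1 as an antisense RNA, whose reads are uncertain. These values describe likeness over 4 clones and carry no test.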

How the data were processed

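Messenger RNA of AMO1 clones was read as single ends of 50 bases from a stranded kit. The authors deposited counts per gene for 58302 genes, and the submitters' processing notes name GSNAP, edgeR 3.32.1, limma 3.46.0 and the builds GRCh37 and hg19. The use of strand in counting is not given in the sources used here, so reads of antisense partners cannot be told apart. In GENCODE 44 each partner of a member in the table had at most 3 counts. The authors also deposited log2 CPM values with TMM scaling, which served as an alternative. Groups came from the labels, and hours from the treatment label. Replicates are described as biological, and no pair agreed within sampling noise (mean chi-square per gene at least 1.67).

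Counts were fitted with edgeR 4.0.16 in R 4.3.3 (quasi-likelihood F test, TMM, filterByExpr with a minimum count of 10 and a minimum total of 15), with Benjamini-Hochberg adjustment over all genes tested. A clone's 12 libraries were fitted together for changes from 0 h, and all 48 for differences of response. A call is an adjusted p under 0.05. The SE of a log2 value is its absolute size divided by the square root of the F statistic of its test. Alternatives were RLE scaling, no filter, other sets of libraries, DESeq2 1.42.0, limma 3.58.1 on the log2 table, a replicate block and leaving out each library. Lengths are of GENCODE 44 canonical transcripts, from a later annotation than that of the counts. Named genes are the members, ERN1, XBP1 and IRF4 as checks, up to 4 genes per list and direction called alike in both shIRE1 clones at 72 h by mean size, and the 3 most similar genes. The members, lists and tests were chosen with earlier results of these data known. The words searched in promoters were chosen after the sequences were seen. Of the members, 8 of 10 had a promoter entry. The limit given for PAX5 covers counting error only, whereas each SD and SE includes the spread between replicates. The level of 1 marker gene is not reported here. Libraries of 19177855 to 40767202 counts leave PAX5, BCL6 and ZBTB20 imprecise, and likewise the 0 h levels of MS4A1 and IRF8.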

Additional observations from a re-analysis of the deposited data

Results flagged for a closer look

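Members whose response differed between groups by a test of the difference itself (edgeR, adjusted p under 0.05) are listed here with the difference of log2 fold changes. For shIRE1 minus shXBP1 these were at 24 h PRDM1 (-0.59), POU2AF1 (0.34), POU2F2 (0.44), IKZF1 (0.33), IKZF3 (-0.34) and BACH2 (-0.41), at 48 h PRDM1 (-0.94), POU2AF1 (0.93), IKZF1 (0.44), IKZF3 (-0.38), BACH2 (-0.46) and SPIB (-1.19), and at 72 h PRDM1 (-1.07), POU2AF1 (0.90), IKZF1 (0.50), IKZF3 (-0.24), BACH2 (-0.44) and SPIB (-1.45). Between the clones of shIRE1 at 72 h (clone 3 minus clone 1) they were IKZF1 (0.55), IKZF3 (-0.30), BACH2 (-0.33) and ZBTB20 (-1.57). Between the clones of shXBP1 at 72 h (clone 18 minus clone 1) they were PRDM1 (0.24), IKZF1 (-0.25), BACH2 (-0.76), SPIB (-0.35) and ZBTB20 (-1.42), of which those of IKZF1 and SPIB did not pass the test without the library labelled clone 18, 72 h, replicate 3. Groups of 3 libraries were not searched for outlying values.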

How the results depend on the processing

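Of 189 values of 1 member in 1 comparison, 110 were called, 86 of these under every alternative and 24 not under at least 1, and none of the 110 changed sign. Of the 79 not called, 20 changed sign and 16 were called under at least 1 alternative. The cause of these changes was not tested. The number of members called went from 3 to 5 in shXBP1 clone 1 at 24 h with 48 libraries in each fit. In shXBP1 clone 18 it went from 3 to 5 at 48 h with the 6 libraries compared alone, and from 2 at 72 h to 4 with 48 libraries in each fit and to 0 with the 6 libraries compared. It went from 5 to 2 between the shXBP1 clones at 72 h with no filter on low counts. With 1 library left out, the lowest and highest numbers called were 3 and 5 for shXBP1 clone 1 at 24 h, 0 and 1 for shXBP1 clone 18 at 24 h, 0 and 3 for shXBP1 clone 18 at 48 h, 0 and 2 for shXBP1 clone 18 at 72 h, 3 and 5 for shXBP1 clone 18 minus clone 1 in response at 72 h. Replicate numbers did not pair the samples, since same-numbered libraries correlated above 0.1 for each number in 1 of 12 comparisons (shXBP1 clone 1 at 72 h). With a replicate block, 4 in place of 8 members were called between the shIRE1 clones at 0 h and 1 in place of 2 in shXBP1 clone 18 at 72 h. Values near 0 that changed sign were, with no filter on low counts IKZF3 in shIRE1 clone 1 at 48 h against 24 h (-0.0070), POU2F2 in shIRE1 clone 3 at 48 h (0.0071), IKZF1 in shXBP1 clone 18 at 24 h (0.0050), POU2AF1 in shXBP1 clone 18 minus clone 1 in response at 72 h (0.00025), and with 48 libraries in each fit IKZF3 in shIRE1 clone 1 at 48 h against 24 h (-0.0018), and with the 6 libraries compared alone IKZF3 in shIRE1 clone 1 at 48 h against 24 h (-0.0028), IKZF3 in shXBP1 clone 18 at 48 h (-0.0090), and with limma ZBTB20 in shIRE1 clone 3 at 24 h (0.035), POU2F2 in shIRE1 clone 3 at 48 h (0.014), and with RLE scaling POU2AF1 in shXBP1 clone 18 minus clone 1 in response at 72 h (0.026), and with DESeq2 POU2AF1 in shXBP1 clone 18 minus clone 1 in response at 72 h (0.026). With 1 library left out, sign changes were seen for POU2F2 in shIRE1 clone 1 at 72 h (-0.027 to 0.060), IKZF3 in shIRE1 clone 1 at 48 h against 24 h (-0.020 to 0.034), ZBTB20 in shIRE1 clone 1 at 48 h against 24 h (-0.36 to 0.10), ZBTB20 in shIRE1 clone 3 at 24 h (-0.42 to 0.16), POU2F2 in shIRE1 clone 3 at 48 h (-0.061 to 0.021), POU2F2 in shXBP1 clone 1 at 24 h (-0.18 to 0.026), SPIB in shXBP1 clone 1 at 24 h (-0.031 to 0.053), POU2F2 in shXBP1 clone 1 at 72 h (-0.12 to 0.035), IKZF1 in shXBP1 clone 18 at 24 h (-0.036 to 0.016), IKZF3 in shXBP1 clone 18 at 24 h (-0.0021 to 0.13), BCL6 in shXBP1 clone 18 at 24 h (-0.17 to 0.090), IKZF3 in shXBP1 clone 18 at 48 h (-0.017 to 0.044), IKZF1 in shXBP1 clone 18 at 72 h (-0.086 to 0.017), ZBTB20 in shIRE1 minus shXBP1 at 24 h (-0.28 to 0.015), BCL6 in shIRE1 minus shXBP1 at 48 h (-0.080 to 0.14), POU2AF1 in shXBP1 clone 18 minus clone 1 in response at 72 h (-0.022 to 0.085), IKZF3 in shXBP1 clone 18 minus clone 1 in response at 72 h (-0.040 to 0.085), BCL6 in shXBP1 clone 18 minus clone 1 in response at 72 h (-0.041 to 0.22), POU2F2 in shXBP1 clone 18 minus clone 1 at 0 h (-0.068 to 0.081), BCL6 in shXBP1 clone 18 minus clone 1 at 0 h (-0.24 to 0.00089), IRF4 in shXBP1 clone 18 at 72 h (-0.018 to -0.018). Without shXBP1 clone 18, 72 h, replicate 3, an alternative chosen after the data were seen for the programme lists, IRF4 in that clone at 72 h went from 0.0089 to -0.018. At 8 to 41 counts per library for BCL6 and 17 to 91 for ZBTB20, depth limits what can be called.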

Other observations

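Close relatives of the members moved both ways in the shIRE1 clones. Of 20 relatives 14 were tested, and at 72 h 9 rose and 4 fell in clone 1 and 7 rose and 4 fell in clone 3, where 63.6% and 60.2% of all genes changed. Those that fell in both clones were ZBTB38, a BTB zinc-finger protein (-0.79 and -3.03 on the log2 scale in clones 1 and 3), POU2F1, the widely expressed relative of POU2F2 (-0.46 and -0.95), BACH1 (-0.47 and -0.72) and IKZF4 (-0.62 and -0.53). The 7 that rose in both included BCL6B (0.68 and 0.60), ZBTB7B (0.66 and 0.54), PRDM2 (0.56 and 0.39) and ZBTB17 (0.48 and 0.46). In shXBP1 clone 1, 4 rose and 0 fell of 14 at 72 h, among which ZBTB38 rose by 0.85, and in clone 18 0 rose and 1 fell, also without replicate 3 at 72 h, where 33.6% and 9.96% of all genes were called.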
